A study of Mus musculus with 8 samples.

Results

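The 9 transcription factor genes that carry blood cell formation, Gata1, Gata2, Klf1, Tal1, Lmo2, Runx1, Spi1, Gfi1b and Lyl1, were followed at day 5 of embryoid body culture in 2 libraries of single cells. They were taken by name from the 27998 gene rows of the count tables, and all 9 had a row. The libraries came from mouse embryonic stem cells of the E14-NKX2-5-EmGFP line, which carries a green fluorescent reporter for the cardiac gene Nkx2-5, grown on embryonic fibroblast feeders and then differentiated in hanging drops without leukemia inhibitory factor. A library was labelled Tet triple knockout (TKO), that is, cells meant to lack all TET enzymes, which oxidise 5-methylcytosine in DNA, and the other was labelled wild type (WT). The deleted parts of the Tet genes, the number of clones and the number of cultures are not stated in the labels. A further 6 samples, pull-downs of 5-hydroxymethylcytosine from WT cells, were not analysed here. With 1 library per genotype no test between genotypes was possible. All intervals below are 95% intervals that cover counting error only, and a difference between the libraries cannot be told apart from a difference between 2 cultures.

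After filters the TKO library held 3196 cells and 33483998 UMIs (unique molecular identifiers, counted RNA molecules), with a median of 9678 UMIs per cell, and the WT library held 4389 cells and 37503810 UMIs, with a median of 7847. Transcripts of the targeted genes were still counted in the TKO library. Tet1 had 762 UMIs in TKO cells and 462 in WT cells, Tet2 had 154 and 256, and Tet3 had 680 and 1092, so the RNA totals do not check the genotype label. The headers of the tables shared 21 cell barcodes. Levels are given in CPM, the UMIs of a gene over all UMIs of the same cells, scaled to a total of 1000000. The cells were divided with genes outside the 9. Globin-rich cells drew at least 1% of their UMIs from globin genes, and there were 14 among TKO cells (0.438%, 0.240% to 0.734%) and 491 among WT cells (11.2%, 10.3% to 12.2%). Endothelial-gated cells were not globin-rich and held a UMI of at least 3 of 9 endothelial genes (Cdh5, Pecam1, Tie1, Cldn5, Esam, Emcn, Icam2, Plvap and Ecscr), and there were 40 among TKO cells (1.25%) and 183 among WT cells (4.17%). The remaining 3142 TKO and 3715 WT cells are called other cells. The median globin share of globin-rich cells was 5.21% in TKO cells and 5.41% in WT cells.

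As background, these factors act in overlapping complexes. TAL1 and its close relative LYL1 are basic helix-loop-helix proteins that pair with E proteins, and LMO2 bridges them to LDB1 and to a GATA factor. GATA2 and TAL1 act early, in hemogenic endothelium and blood progenitors. RUNX1 is needed for blood stem and progenitor cells to arise from endothelium. In red cell precursors GATA1 replaces GATA2 on shared sites, KLF1 activates adult and embryonic globin and membrane genes through CACCC elements, and GFI1B is a repressor needed for red cells and platelets. SPI1, also called PU.1, drives myeloid cells and opposes GATA1.

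To give these genes their place in the genome, the promoters of the red cell trio Gata1, Klf1 and Gfi1b are shown. These are RefSeq windows of build GRCm38.p6 that run from 250 bases before an annotated start to 50 bases after it. Capitals mark a GATA word (AGATAA or AGATAG, and likewise TGATAA or TGATAG, on either strand) or a CACCC word (CCACACCC or CCACGCCC, and likewise CCCCACCC or CCCCGCCC, on either strand). The Gata1 window lies on the minus strand at chrX:7967861-7968160, the Klf1 window on the plus strand at chr8:84901732-84902031, and the Gfi1b window on the minus strand at chr2:28621933-28622232.
Gata1: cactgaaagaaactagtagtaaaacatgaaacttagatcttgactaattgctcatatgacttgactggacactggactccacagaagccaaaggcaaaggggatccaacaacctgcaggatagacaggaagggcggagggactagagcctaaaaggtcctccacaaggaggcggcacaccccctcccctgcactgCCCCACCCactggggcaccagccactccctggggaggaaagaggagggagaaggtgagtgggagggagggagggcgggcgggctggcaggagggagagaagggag
Klf1: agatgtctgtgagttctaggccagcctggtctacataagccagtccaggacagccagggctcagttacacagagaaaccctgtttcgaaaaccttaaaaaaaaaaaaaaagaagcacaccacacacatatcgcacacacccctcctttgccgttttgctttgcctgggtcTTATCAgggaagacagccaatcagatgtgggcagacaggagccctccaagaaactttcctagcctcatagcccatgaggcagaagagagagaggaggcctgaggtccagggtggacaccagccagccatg
Gfi1b: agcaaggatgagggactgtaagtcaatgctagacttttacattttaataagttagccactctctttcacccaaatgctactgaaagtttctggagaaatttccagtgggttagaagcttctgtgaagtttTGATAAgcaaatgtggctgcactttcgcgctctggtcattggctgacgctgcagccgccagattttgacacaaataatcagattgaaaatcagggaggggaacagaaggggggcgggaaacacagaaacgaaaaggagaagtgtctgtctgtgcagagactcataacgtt
The Klf1 window held a GATA word 80 bases before the start and the Gfi1b window held one 120 bases before it. The Gata1 window held a CACCC word 55 bases before the start. Words of these kinds are common: 29.8% of all 32851 windows held a GATA word and 29.7% a CACCC word, so a match describes the letters and is not evidence of a bound site. The table gave 10 windows for 7 of the 9 genes, and Spi1 and Lmo2 had none. The windows differed in CpG content, the substrate of DNA methylation. Over all windows the median was 7 CpGs, with quartiles of 3 and 20. Gfi1b and Lyl1 had 7 each, Gata1 had 4 and Klf1 had 3. The 2 Gata2 windows had 32 and 29, the 2 Tal1 windows 11 and 22 and the 2 Runx1 windows 2 and 35. No DNA methylation value was analysed here.

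Over the whole library, 7 of the 9 genes were at least 2-fold lower in TKO cells. Among all 15344 rows with at least 10 UMIs, 12.6% were at least 2-fold lower and 13.7% at least 2-fold higher in TKO cells. The median log2 ratio was -2.85 over the 9 genes and 0.14 over all rows. The red cell factors were among the lowest. Gata1 had 41 UMIs (1.22 CPM, 0.879 to 1.66) in TKO cells and 643 UMIs (17.1 CPM, 15.8 to 18.5) in WT cells, a TKO over WT ratio of 0.0714 (0.0508 to 0.0980). Klf1 had 2.39 CPM in TKO cells and 30.1 CPM in WT cells, a ratio of 0.0794 (0.0625 to 0.0996). Gfi1b had 13 UMIs in TKO cells and 378 in WT cells, a ratio of 0.0385 (0.0203 to 0.0667). Spi1, the myeloid factor, was close to absent, with 2 UMIs in TKO cells and 83 in WT cells and a ratio of 0.0270 (0.00322 to 0.101).

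The factors that blood shares with endothelium and early mesoderm were lower by less, or not lower. Lyl1 had 2.09 CPM in TKO cells and 15.2 CPM in WT cells, a ratio of 0.138 (0.106 to 0.177). Runx1 had 3.43 CPM in TKO cells and 14.7 CPM in WT cells, a ratio of 0.234 (0.190 to 0.286). Tal1 had 4.21 CPM in TKO cells and 13.8 CPM in WT cells, a ratio of 0.306 (0.252 to 0.369). These 3 genes were thus still at least 2-fold lower in TKO cells. Lmo2, the bridge of the complex, had 672 UMIs (20.1 CPM) in TKO cells and 959 UMIs (25.6 CPM) in WT cells, a ratio of 0.785 (0.710 to 0.867). Gata2 was the one member not lower, with 197 UMIs (5.88 CPM) in TKO cells and 192 UMIs (5.12 CPM) in WT cells, and its ratio of 1.15 had an interval of 0.937 to 1.41 that included 1. In a sum over a library, fewer cells of a type and less RNA per cell cannot be told apart, and the gates below give the level per UMI within a class of cells.

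**Figure D1:**
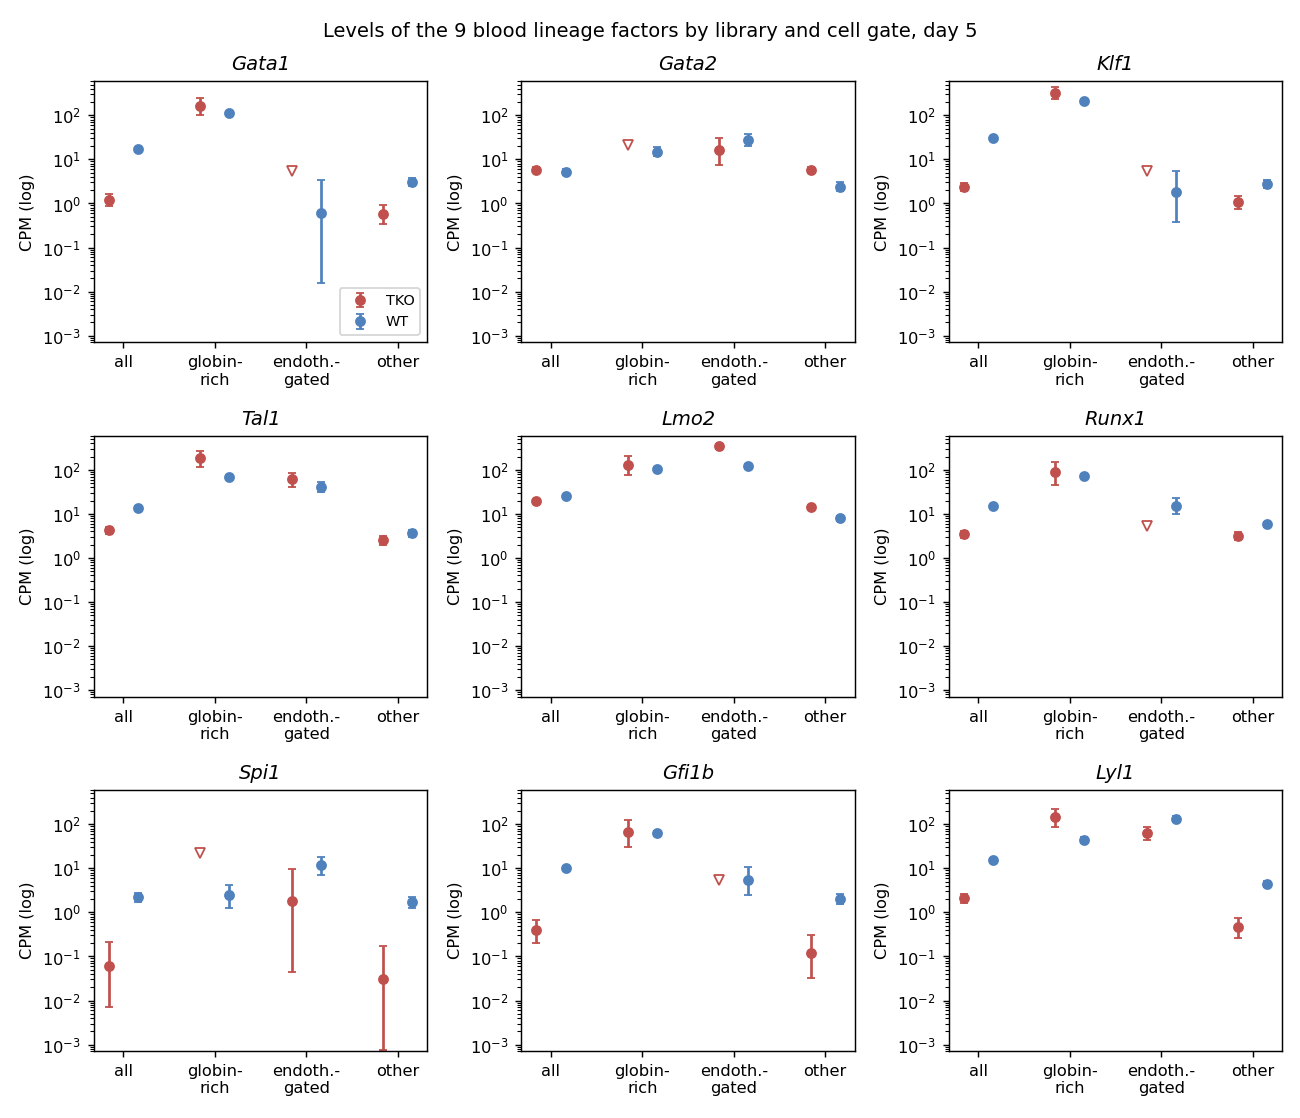
Level of each gene, in CPM on a log axis, in all cells and in the 3 gates, with TKO (red) left of WT (blue). Points are single libraries, bars are exact Poisson 95% intervals, and open triangles mark the level of 3 UMIs where none was counted. Gata1, Klf1 and Gfi1b are lower in TKO over all cells and not in globin-rich cells, where Klf1 had 326.5 CPM in TKO and 211.6 CPM in WT. That gate selects cells by globin, so similar levels there were in part set in advance.

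Inside globin-rich cells none of the 9 genes was at least 2-fold lower in TKO, against 6.12% of the 9952 rows with at least 10 UMIs there, and 2 were at least 2-fold higher, against 14.3% of rows. The median log2 ratio of all these rows was 0.30. Gata2 and Spi1 had 0 UMIs in TKO there. The floor of 3 UMIs (21.8 CPM) lay above their WT levels, so neither could have been called lower. The same floor applied to all rows. The gate itself selects cells by globin, and Gata1, Klf1 and Gfi1b rose with the globin share in WT cells. Levels near those of WT in this gate were therefore in part set in advance. Gata1 had 22 UMIs (159.6 CPM) in TKO globin-rich cells and 545 UMIs (111.0 CPM) in WT globin-rich cells, a ratio of 1.44 (0.893 to 2.20). Klf1 had 45 UMIs (326.5 CPM) in TKO and 1039 UMIs (211.6 CPM) in WT, a ratio of 1.54 (1.12 to 2.08). Gfi1b had 65.3 CPM in TKO and 62.3 CPM in WT, a ratio of 1.05 (0.474 to 2.01). Of these 3 ratios only that of Klf1 had an interval above 1, and it no longer did with the highest doublet scores removed (1.37, 0.992 to 1.85) or with a globin limit of 5% (1.20, 0.790 to 1.75). Runx1 had a ratio of 1.23 (0.630 to 2.18) and Lmo2 of 1.24 (0.729 to 1.98).

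The 2 genes past 2-fold in globin-rich cells were the helix-loop-helix relatives. Tal1 had 25 UMIs (181.4 CPM) in TKO and 336 UMIs (68.4 CPM) in WT, a ratio of 2.65 (1.69 to 3.98). Lyl1 had 20 UMIs (145.1 CPM) in TKO and 216 UMIs (44.0 CPM) in WT, a ratio of 3.30 (1.97 to 5.22). The TKO sums rest on few cells: the 5 TKO globin-rich cells with the most UMIs of a gene held 72.0% of its UMIs for Tal1, 77.8% for Klf1, 80.0% for Lyl1 and 91.7% for Runx1. For Gfi1b a single cell held 6 of the 9 UMIs. Gata2 had 0 UMIs in the 14 TKO cells and 73 UMIs (14.9 CPM) in WT, and Spi1 had 0 UMIs in TKO and 12 UMIs (2.44 CPM) in WT. Both WT levels lie below the 21.8 CPM that 3 UMIs would make in the TKO cells, so a difference in these genes was not detectable at this depth.

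Endothelial-gated cells showed another order. Of the 6 members with at least 10 UMIs there, 3 were at least 2-fold lower in TKO, against 9.89% of 9281 rows, and 1 was at least 2-fold higher, against 7.13%. The higher one was Lmo2, with 191 UMIs (338.6 CPM, 292.3 to 390.2) in TKO and 195 UMIs (120.0 CPM, 103.7 to 138.0) in WT, a ratio of 2.82 (2.30 to 3.46). It was counted in 33 of the 40 TKO cells (82.5%) and 95 of the 183 WT cells (51.9%). With every cell thinned to 4000 UMIs these shares were 65.0% of 40 TKO cells and 36.4% of 165 WT cells. Tal1, its partner, had 60.3 CPM in TKO and 41.2 CPM in WT, a ratio of 1.46 (0.938 to 2.24).

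Lyl1 went the other way in endothelial-gated cells, with 35 UMIs (62.1 CPM) in TKO and 216 UMIs (132.9 CPM) in WT, a ratio of 0.467 (0.317 to 0.670). Runx1 was not seen in TKO and had 25 UMIs (15.4 CPM) in WT, of which 13 lay in 5 cells. Against a floor of 3 UMIs over the TKO cells it was 2.89-fold lower, a value that leaves out the counting error of WT. Spi1 had 1 UMI in TKO and 19 UMIs in WT, a ratio of 0.152 (0.00365 to 0.954). Gfi1b had 0 UMIs in TKO and 9 UMIs in WT. Gata2 had 9 UMIs in TKO and 45 UMIs in WT, and its ratio of 0.576 had an interval of 0.248 to 1.19. Of the WT endothelial-gated cells 12 also held at least 3 of 12 white cell and platelet genes, against 0 of the TKO ones, and the part of those cells in the Runx1, Spi1 and Gfi1b counts was not tested. The 9 gate genes summed to 828.0 CPM in TKO and 2033 CPM in WT endothelial-gated cells, and the part of this in the ratios was not tested. When the gate asked for at least 4 endothelial genes, 0 members were at least 2-fold lower, Lyl1 had a ratio of 0.506 and Lmo2 one of 3.05. Runx1 and Spi1 left this count because their UMIs in that stricter gate fell below the minimum for testing. Whether these genes stayed lower in TKO there was therefore not tested. The share over all rows was not computed at that setting.

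Gata1 and Klf1 were also read in that gate, since endothelium should lack both. The gate leaves out globin-rich cells by its definition, so low counts of both were in part set in advance and do not check it. Gata1 was counted in 0 of 40 TKO and 1 of 183 WT endothelial-gated cells, and Klf1 in 0 of 40 TKO and 3 of 183 WT cells, at median depths of 11695 UMIs per TKO cell and 7395 UMIs per WT cell. The same genes were counted in 10 and 9 of the 14 TKO globin-rich cells and in 288 and 374 of the 491 WT ones.

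**Figure D2:**
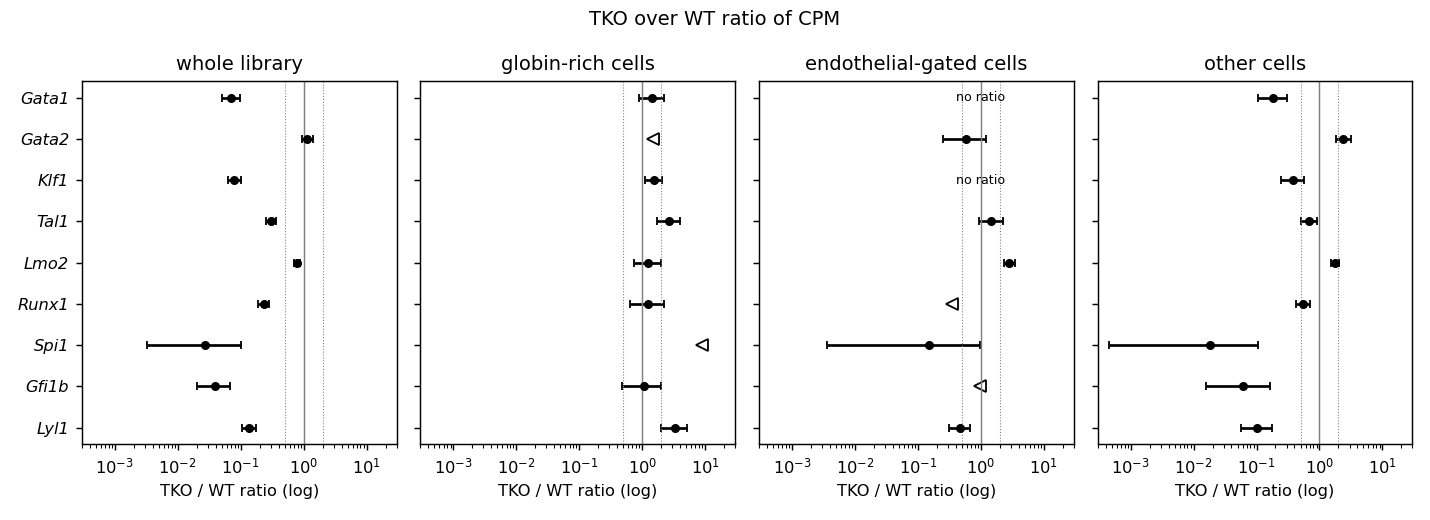
TKO over WT ratio of each gene's level on a log axis, over the whole library and within each gate, with exact 95% intervals from the binomial share; dotted lines mark 2-fold and open arrows an upper bound where the TKO cells held no UMI. Ratios of Gata1 and Klf1 are 0.0714 and 0.0794 over the library and 1.44 and 1.54 in globin-rich cells.

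In the other cells 5 members were at least 2-fold lower in TKO, against 12.4% of 15120 rows, and 1 was at least 2-fold higher, against 14.3%. The lower ones were the committed factors and Lyl1. Spi1 had 1 UMI in TKO and 52 UMIs in WT, a ratio of 0.0182 (0.000451 to 0.106). Gfi1b had 4 UMIs in TKO and 63 UMIs in WT, a ratio of 0.060 (0.0159 to 0.161). Lyl1 had a ratio of 0.103 (0.0560 to 0.175), Gata1 of 0.185 (0.107 to 0.305) and Klf1 of 0.380 (0.249 to 0.569). Runx1 had 3.14 CPM in TKO and 5.78 CPM in WT, a ratio of 0.544 (0.422 to 0.697), and Tal1 had 2.50 CPM in TKO and 3.65 CPM in WT, a ratio of 0.686 (0.509 to 0.919).

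Gata2 and Lmo2 were higher in the TKO other cells. Gata2 had 188 UMIs (5.73 CPM, 4.94 to 6.62) in TKO and 74 UMIs (2.39 CPM, 1.88 to 3.00) in WT, a ratio of 2.40 (1.82 to 3.18). Lmo2 had 463 UMIs (14.1 CPM) in TKO and 247 UMIs (7.98 CPM) in WT, a ratio of 1.77 (1.51 to 2.08). The cells behind these sums differed between the libraries. The summed level of 8 epithelial and pluripotency genes was 863.5 CPM in TKO other cells and 85.1 CPM in WT other cells. That of 9 fibroblast genes was 69.8 CPM in TKO and 1264 CPM in WT. The fibroblast genes did not all go the same way. Over the whole library 6 of the 9 were at least 2-fold lower in TKO, against 12.6% of all rows. Thy1 (1.79 CPM in TKO and 0.773 CPM in WT) and Twist1 (36.6 and 17.1 CPM) were at least 2-fold higher, against 13.7%. All 8 of the epithelial and pluripotency genes and all 9 fibroblast genes were counted in both libraries, from Otx2, at 99.3 CPM in TKO and 0.880 CPM in WT over the whole library, to Col1a1, at 0.299 CPM in TKO and 151.7 CPM in WT. Their part in the Gata2 and Lmo2 ratios was not tested.

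The ratios in other cells moved with the globin limit. There were 8 TKO cells and 236 WT cells with 0.1 to 1% globin, and these WT cells held 55 Klf1 and 58 Gata1 UMIs, beside 87 Klf1 and 97 Gata1 UMIs in all WT other cells. With the limit at 0.1%, an alternative chosen after seeing the data, Klf1 had a ratio of 0.750 (0.432 to 1.29), Tal1 of 0.918 (0.635 to 1.33) and Runx1 of 0.800 (0.603 to 1.06), so these intervals then included 1, and Lmo2 stood at 3.05. With the limit at 5%, so that cells of up to 5% globin counted as other cells, Lmo2 stood at 0.911, Gata2 at 1.70, Klf1 at 0.111, Tal1 at 0.359 and Runx1 at 0.323.

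Because the gates took such different shares of the 2 libraries, each TKO level was also recomputed as if the TKO gates held the WT shares of UMIs. Klf1 was then 43.6 CPM in TKO against 30.1 CPM in WT, a ratio of 1.45 in place of 0.0794. The ratio of Gata1 became 1.25, that of Lyl1 1.45, of Tal1 2.07 and of Lmo2 1.70. Runx1 came to 0.952, Gfi1b to 0.858 and Gata2 to 1.06. Spi1 remained low at 0.0461. These values lean on the 14 TKO globin-rich cells and carry no interval. Selection of those cells by globin in part sets their levels of red cell factors. With a globin limit of 2% the value for Gata1 was 0.885. With a limit of 5% it was 0.480 for Gata1, 0.734 for Klf1, 0.712 for Lyl1, 1.18 for Tal1 and 0.552 for Runx1.

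**Figure D3:**
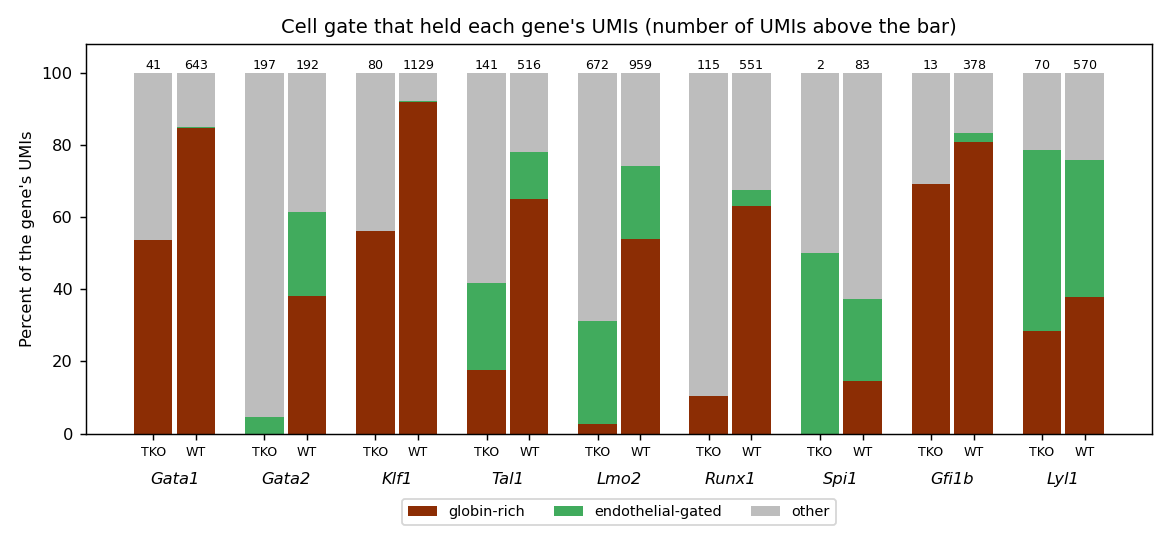
Share of each gene's UMIs that lay in globin-rich, endothelial-gated and other cells, TKO left of WT, with the number of UMIs above each bar. Globin-rich cells held 56.3% of Klf1 UMIs in TKO and 92.0% in WT, and other cells held 95.4% of Gata2 UMIs in TKO and 38.5% in WT.

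The place of each gene's UMIs moved with the library. Globin-rich cells held 53.7% of Gata1 UMIs in TKO and 84.8% in WT, 56.3% of Klf1 UMIs in TKO and 92.0% in WT, and 2.68% of Lmo2 UMIs in TKO and 53.9% in WT. Of the Gata2 UMIs, 95.4% lay in other cells in TKO and 38.5% in WT. For Runx1 that share was 89.6% in TKO and 32.5% in WT. Lyl1 was spread over all gates, with 35 of its 70 UMIs in endothelial-gated cells in TKO and 216 of 570 in WT.

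The balance of Gata2 and Gata1, which exchange on shared sites as red cells mature, followed the gates. Gata2 made up 82.8% (77.4% to 87.3%) of the 238 UMIs of both genes in TKO cells and 23.0% (20.2% to 26.0%) of the 835 in WT cells. In endothelial-gated cells it was 100% of 9 UMIs in TKO and 97.8% of 46 UMIs in WT. In globin-rich cells it was 0% of 22 UMIs in TKO, with an upper limit of 15.4%, and 11.8% of 618 UMIs in WT. Within these gates the intervals of the 2 libraries overlapped, and in other cells, with 90.8% (86.0% to 94.4%) in TKO and 43.3% (35.7% to 51.1%) in WT, they did not.

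WT cells, which were numerous enough to be cut by globin share, showed how the members are laid along it. Klf1 stood at 1.14, 28.7, 206.9 and 245.0 CPM in cells with under 0.1%, 0.1 to 1%, 1 to 10% and 10 to 25% of globin UMIs, which were 3662, 236, 415 and 75 cells. Gata1 went through 1.30, 30.3, 106.8 and 141.2 CPM over the same classes. Gata2 moved less, with 3.32, 8.87, 14.4 and 18.7 CPM, and Lyl1 took 9.49, 32.9, 41.7 and 61.2 CPM. Spi1 alone showed no climb, at 2.15, 2.61, 2.55 and 1.70 CPM, all with overlapping intervals. Among TKO cells only the lowest class held at least 20 cells, with 3174, and there Lmo2 had 18.7 CPM against 10.5 CPM in the same WT class, Gata2 had 5.80 against 3.32 CPM and Lyl1 1.23 against 9.49 CPM.

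**Figure D4:**
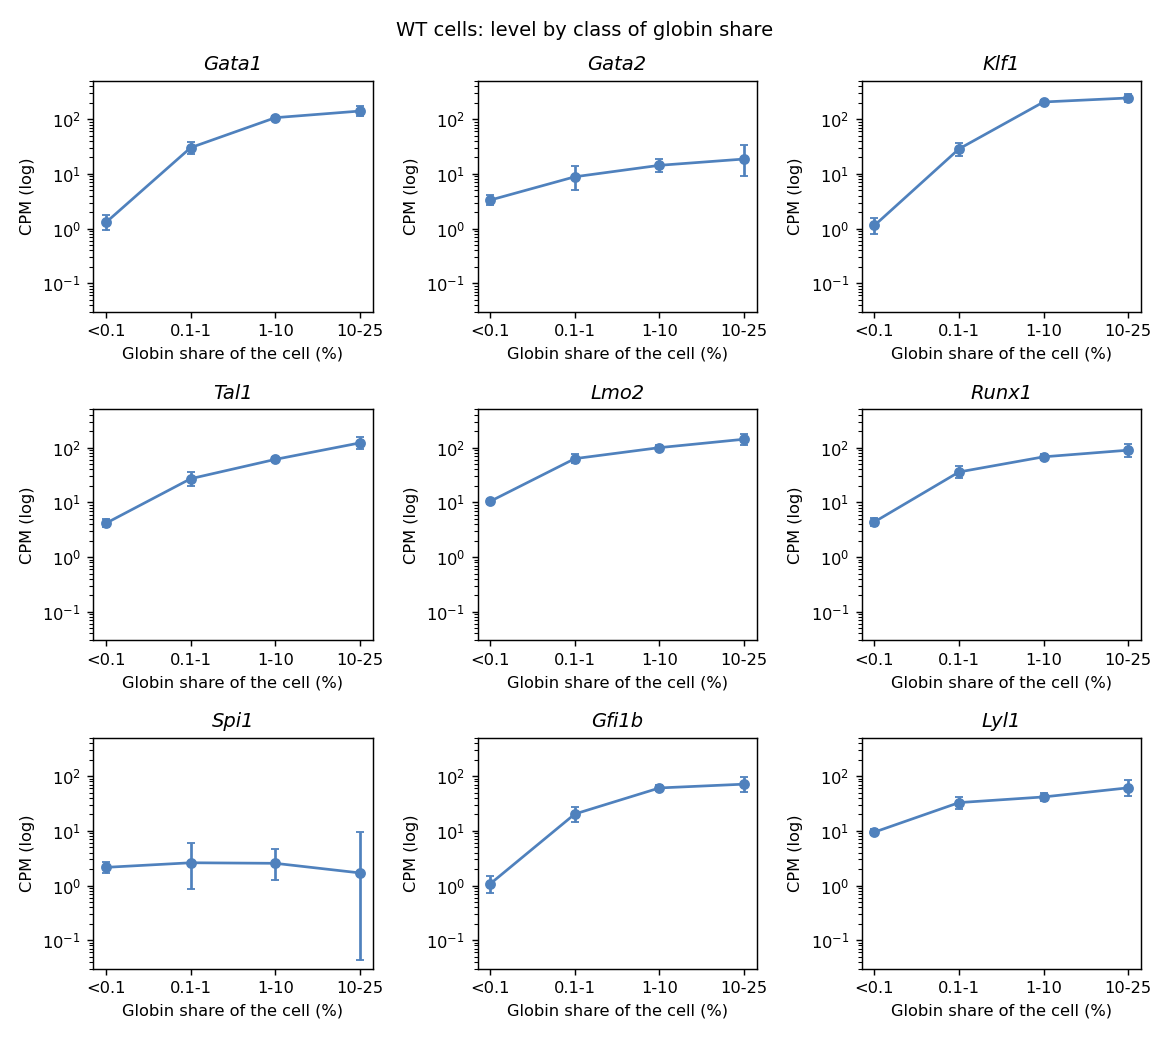
Level of each gene in WT cells, in CPM on a log axis, by class of the cell's globin share in percent, with exact Poisson 95% intervals. Klf1 climbs over the classes to 245.0 CPM, and Spi1 stays between 1.70 and 2.61 CPM.

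RNA set free by broken cells could place UMIs of red cell genes in any droplet, and globin transcripts were used as a scale for it. WT cells with under 0.1% globin held 8639 globin UMIs. At the Klf1 to globin ratio of globin-rich cells these would come with 32.5 Klf1 UMIs, and 35 were counted. Whether these globin and Klf1 UMIs came from free RNA or from the cells themselves was not tested. Gata1 had 40 UMIs in those WT cells against 17.1 on that scale, Gfi1b 33 against 9.58, Tal1 128 against 10.5, Lmo2 321 against 16.2 and Spi1 66 against 0.376. In TKO cells under the same limit Klf1 had 27 UMIs against 1.82 on the scale of the TKO globin-rich cells, and Lmo2 had 623 against 0.726. In TKO no such scale could be set for Gata2 or Spi1, which had no UMI in the TKO globin-rich cells. In WT Gata2 had 102 UMIs against 2.28.

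Much of the Spi1 in WT lay in a small set of cells. Among the WT other cells 19, and 0 of the TKO ones, held at least 3 of the white cell and platelet genes Ptprc, Tyrobp, Fcer1g, Laptm5, Coro1a, Cd53, Csf1r, Rac2, Pf4, Itga2b, Gp9 and Plek. A count of 0 among 3196 cells allows a share of up to 0.115% by the exact interval. In the 19 WT cells Spi1 had 40 UMIs (244.1 CPM), which was 48.2% of all its 83 WT UMIs, and endothelial-gated cells held 19 and globin-rich cells 12. Lyl1 stood at 231.9 CPM there, Runx1 at 170.9 CPM and Gata1 at 97.6 CPM. At the summed level the 12 genes came to 5.26 CPM in TKO cells and 19.8 CPM in WT cells. Of the 11 that passed 10 UMIs, 8 were at least 2-fold lower in TKO, against 12.6% of all rows.

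Over the whole library, cells that held several members at once were rarer in TKO. After thinning to 4000 UMIs per cell, which left out 190 TKO and 372 WT cells, at least 2 of the 9 genes were seen in 45 of 3006 TKO cells and 399 of 4017 WT cells. In globin-rich cells the figures were 9 of 12 TKO cells and 289 of 442 WT cells, with the higher share in TKO, and in endothelial-gated cells they were 12 of 40 TKO cells and 56 of 165 WT cells. In other cells they were 24 of 2954 TKO cells (0.812%) and 54 of 3410 WT cells (1.58%).

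In the other cells the company each gene kept differed by member. Lmo2 was seen in 95 TKO cells, of which 41.1% (31.1% to 51.6%) also held Kdr, the VEGF receptor of early vascular mesoderm, and 25.3% held Etv2, a factor that starts the blood and vessel programme. Kdr was held by 9.79% and Etv2 by 1.99% of the TKO other cells without Lmo2. Of 61 WT cells with Lmo2, 31.1% (19.9% to 44.3%) held Kdr and 19.7% held Etv2, and the Kdr intervals of the libraries overlapped. Tal1 was seen in 23 TKO other cells, of which 17 (73.9%, 51.6% to 89.8%) held Lmo2, against 11 of 36 in WT (30.6%, 16.3% to 48.1%), and these intervals did not overlap.

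Most TKO other cells with Gata2 or Runx1 held no other member, as did most of those without the gene. Of 51 TKO cells with Gata2, 5 (9.80%, 3.26% to 21.4%) held another member, against 8 of 19 in WT (42.1%, 20.3% to 66.5%). Of 28 TKO cells with Runx1, 3 (10.7%, 2.27% to 28.2%) held another member, against 32 of 62 in WT (51.6%, 38.6% to 64.5%). The Runx1 intervals of the libraries did not overlap. Among TKO other cells without Gata2, 4.82% held another member, and among those without Runx1, 5.57% did. These rates were below the shares in TKO cells with the gene but inside their intervals. Gata3, another GATA gene, was held by 11 of the 51 TKO cells with Gata2 (21.6%, 11.3% to 35.3%). It was held by 10.8% of the TKO other cells without Gata2, and by 1 of the 19 WT cells with Gata2. Kdr was held by 0 of the 28 TKO Runx1 cells, with an upper limit of 12.3%, and by 12 of the 62 WT ones (19.4%, 10.4% to 31.4%). The WT other cells included 19 cells with at least 3 white cell and platelet genes, against 0 in TKO. Of these 19 cells 13 held Runx1 before thinning. Cells with 0.1 to 1% globin, 236 in WT and 8 in TKO, lay mostly among the other cells. The part of both sets in these shares, and in those of Tal1 and Lmo2, was not tested.

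Across single WT cells, the genes most like each member were read from Pearson correlations of log-normalised values over 4389 cells and 9003 genes, which share a library, its depth and its gates and are given as a description. Among the 3 genes most like Klf1 were Alas2 (r = 0.768), the first enzyme of erythroid heme synthesis, and Cited4 (0.751). Alas2 and Cited4 were also among the 3 most like Gata1, at 0.603 and 0.602, and among the 3 most like Gfi1b, at 0.450 and 0.455. Tal1, Lmo2 and Runx1 each had Car2, a carbonic anhydrase gene of red cells, first, at 0.484, 0.473 and 0.482. Lyl1 had other company, with Ctla2a (0.531), Dusp2 (0.528) and Igf1 (0.452), and no gene reached 0.3 with Gata2. The 9 members and the globin genes were left out of these rankings. Across the 3196 TKO cells, a reading added after the WT values were seen, Tal1 and Lmo2 correlated with each other at 0.468. Outside the members Lmo2 was closest to Dusp2 (0.452) and Kdr (0.431), and Tal1 to Dusp2 (0.392).

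Partners and targets of the 9 genes were taken from lists. Over all 15344 rows 12.6% were at least 2-fold lower and 13.7% at least 2-fold higher in TKO cells. Of 15 genes for complex partners and cofactors, 2 were at least 2-fold lower, which is near that share. The other 13 lay within 2-fold, and the median log2 ratio was 0.08. The lower ones were Cbfa2t3, a corepressor of the TAL1 complex, with 2.33 CPM in TKO and 13.8 CPM in WT, and Ldb2, a relative of LDB1, with 0.538 CPM in TKO and 2.40 CPM in WT. Zfpm1, which encodes the GATA1 cofactor FOG1, had 18.8 CPM in TKO and 26.1 CPM in WT, and the helix-loop-helix partner Tcf12 had 67.1 CPM in TKO and 44.1 CPM in WT.

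The lists below are set beside the same shares over all rows, 12.6% lower and 13.7% higher. Of 22 red cell genes that passed 10 UMIs, 18 were at least 2-fold lower in TKO cells and 4 lay within 2-fold. Trim10 had 4 UMIs in TKO and 439 in WT, Hemgn 1 in TKO and 242 in WT, and Epb42, a red cell membrane skeleton gene, 0 in TKO and 210 in WT. Bcl2l1, a survival gene used by many cells, had 39.0 CPM in TKO and 20.1 CPM in WT. Of 9 platelet lineage genes 8 were at least 2-fold lower, among them the platelet chemokine gene Pf4 with 0 UMIs in TKO and 37 in WT. Of 11 myeloid genes 6 were lower and 1 was higher, the lysozyme gene Lyz2 with 1 UMI in TKO and 47 in WT, and the Fc receptor gene Fcgr3 with 36 in TKO and 8 in WT. Of 15 endothelial genes 9 were lower and 1 was higher. Tek, an angiopoietin receptor gene, had 1.08 CPM in TKO and 30.3 CPM in WT, where 991 of its 1138 UMIs lay in other cells, and Sox17, which is also made in endoderm, had 34.7 CPM in TKO and 7.76 CPM in WT.

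Other factors of blood did not move as 1 group: of 17, 5 were at least 2-fold lower, 3 were higher and 9 lay within 2-fold. Over all rows 12.6% were lower and 13.7% higher. Nfe2, a partner in globin gene control, had 1.05 CPM in TKO and 13.8 CPM in WT. Sox6 had 3.43 CPM in TKO and 29.1 CPM in WT, where 1053 of its 1090 UMIs lay in other cells and 24 in globin-rich cells. Ikzf1, a lymphoid factor also made in early blood, had 9 UMIs in TKO and 111 in WT. Meis1, a homeobox factor of blood stem cells and many embryonic tissues, was higher, with 32.3 CPM in TKO and 10.2 CPM in WT.

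Among 11 close relatives of the members, 7 passed 10 UMIs, of which 2 were at least 2-fold higher and 1 was lower in TKO cells. Over all rows 13.7% were higher and 12.6% lower. The largest ratio was that of Tal2, a helix-loop-helix paralog of Tal1 and Lyl1 known for its role in midbrain development in the mouse. It had 371 UMIs (11.1 CPM, 9.98 to 12.3) in TKO and 12 UMIs (0.320 CPM, 0.165 to 0.559) in WT, a ratio of 34.6. All 371 TKO UMIs lay in other cells, in 174 of 3142 cells (5.54%), against 9 of 3715 WT other cells (0.242%). After thinning, Tal2 was seen in 0 of the 23 TKO other cells with Tal1, 0 of the 51 with Gata2, 1 of the 95 with Lmo2 and 2 of the 28 with Runx1, and in 2.80% to 2.90% of the cells without one of these genes, so too few were counted to compare. Gata3 had 31.9 CPM in TKO and 15.4 CPM in WT, and Runx3 had 1.88 CPM in TKO and 4.16 CPM in WT.

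In the annotation of GRCm38.p6 the members lie at chrX:7959260-7976663 (Gata1), chr6:88193891-88207032 (Gata2), chr8:84901982-84905291 (Klf1), chr4:115056426-115071755 (Tal1), chr2:103957903-103981878 (Lmo2), chr16:92601466-92826074 (Runx1), chr2:91082374-91115759 (Spi1), chr2:28609450-28621982 (Gfi1b) and chr8:84701423-84704716 (Lyl1). Of these, 6 overlap a long noncoding gene that has no row in the count tables, and the labels do not say whether counting used strand. Lyl1 overlaps Nfix at its end, and Nfix had 12 UMIs in TKO and 45 UMIs in WT.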

How the data were processed

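For each of the TKO and WT libraries the authors deposited a table of raw counts, read here as UMI counts; Seurat 3 and mm10 appear in the submitters' processing notes without a role, while the aligner, the chemistry and any earlier filters are not stated in the labels. The TKO table named 3224 barcodes but held 3223 values per row, so cells were read by position, and rows were matched by position because 116 names differed. Cells with at least 500 genes, 1000 UMIs and at most 15% mitochondrial UMIs were kept, which removed 26 TKO and 3 WT cells. Scrublet in scanpy 1.11.5 marked 1 TKO and 3 WT doublets (0.0310% and 0.0680%), too few for a working caller, so doublets remain.

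Counts were summed over cells. Levels carry exact Poisson intervals, ratios of CPM exact binomial-share intervals and shares Clopper-Pearson intervals. For ratios a gene at 0 was set to a floor of 3 counts, and no ratio was given where both libraries had at most 3. In the levels recomputed at WT gate shares a gene at 0 stayed at 0. Rows whose 2 libraries summed to at least 10 UMIs were tested against the 2-fold limit. Ratios and thinning were tested on simulated data. The 9 genes, gates, lists and rules were chosen with earlier results of these data known. Named list genes are up to 3 at either end of the ratio with at least 20 UMIs. Genes like a member were taken for members with at least 100 UMIs, 3 each, printed from r = 0.3. Promoters are from RefSeq, and numpy 2.4.6, scipy 1.17.1 and edgeR 4.0.16 were used, the last for normalization factors. Some genes that these rules name are not reported here.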

Additional observations from a re-analysis of the deposited data

Results flagged for a closer look

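For 3 of the 9 genes the TKO over WT ratio had an interval above 1 in a class of cells and below 1 elsewhere. The difference between classes was not tested, since each class has 1 library per genotype. These intervals treat each UMI as independent and leave out the spread between cells. The 5 TKO globin-rich cells with the most UMIs of a gene held 77.8% of its UMIs there for Klf1, 72.0% for Tal1 and 80.0% for Lyl1. Klf1 had a ratio of 1.54 in globin-rich cells and 0.380 in other cells. Tal1 had a ratio of 2.65 in globin-rich cells and 0.686 in other cells. Lyl1 had a ratio of 3.30 in globin-rich cells, 0.467 in endothelial-gated cells and 0.103 in other cells. For Klf1 and Tal1 this did not hold throughout. The Klf1 interval in globin-rich cells reached below 1 with the highest doublet scores removed (1.37, 0.992 to 1.85) and at a globin limit of 5% (1.20, 0.790 to 1.75), and its interval in other cells included 1 at a limit of 0.1% (0.750, 0.432 to 1.29). The Tal1 interval in other cells included 1 at limits of 0.5% (0.827, 0.603 to 1.13) and 0.1% (0.918, 0.635 to 1.33).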

How the results depend on the processing

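No paired analysis was possible because each genotype has 1 library. The 7 members at least 2-fold lower over the whole library numbered 7 under each of the 8 alternatives run (TMM factors, median of ratios, totals without globin, mitochondrial and ribosomal protein genes, other cell filters and other minimums). This count had little room to move. Each member passed even the higher minimum of 50 UMIs, and the ratios on either side of the 2-fold limit were 0.306 (Tal1) and 0.785 (Lmo2). TMM moved all log2 ratios by -0.13 and the median of ratios by -0.16, under which Lmo2 over the library was 0.703. The gates mattered more in other cells. With a globin limit of 5% the Lmo2 ratio there reversed to 0.911, 0 members were at least 2-fold higher, Gata2 had 1.70, and the recomputed ratio at WT gate shares was 0.480 for Gata1, 0.734 for Klf1 and 0.712 for Lyl1. With limits of 0.5% and 0.1%, the last chosen after seeing the data, 2 members were at least 2-fold higher in other cells. With at least 2 endothelial genes 2 members were at least 2-fold higher in that gate (Lmo2 4.18, Tal1 2.596), and with at least 4 genes 0 were at least 2-fold lower. At this last setting Runx1 and Spi1 had too few UMIs in the gate to be tested, and Lyl1 had a ratio of 0.506. Shares over all rows were computed at the main gates only. There 14.3% of rows were at least 2-fold higher in other cells, and 7.13% were higher and 9.89% lower in endothelial-gated cells. The moves in these counts are therefore not a result about the members. Of the single-gene ratios and shares of cells that carry an interval, Lmo2 in other cells was the one that reversed, and 26 of 36 shares left their interval with another thinning depth. Of 72 recomputed ratios at WT gate shares, which carry no interval, 66 stayed within 1.5 times and 6 did not. The 14 TKO globin-rich cells and their 137847 UMIs limit every ratio in that gate.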
